A study of Homo sapiens with 7 samples.

Results

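CD24 and 7 other cell surface proteins that are used to sort tumour-initiating cells from renal tumours (CD44, PROM1, ENG, NT5E, THY1, ALCAM and EPCAM) were followed in ACHN cells with and without the long non-coding RNA HOTAIR. Every non-control probe that the array design names after one of these 8 genes was taken, which gave 8 of 34809 gene names and 9 of 42405 probes, with 2 probes for NT5E and 1 for each other gene. CD24 was chosen by its call between HOTAIR and EV on these same arrays, so its difference is given as a description, and the other 7 genes were added as known markers of the same kind. ACHN is an established human renal cell adenocarcinoma line. The cells were infected with a pBabe-hygro retrovirus, either as the empty vector (EV, 4 samples) or carrying human HOTAIR cDNA (HOTAIR, 3 samples), and both groups were selected with hygromycin. Total RNA of each sample was labelled with Cy3 and hybridised to its own Agilent SurePrint G3 Human GE array to look for genes regulated by HOTAIR. The sources do not say whether the samples of a group came from separate infections or cultures, so the errors measure the spread between samples, which may be technical.

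These proteins stand on the outer face of the cell and are read by antibodies in cell sorting. CD24 is a small, heavily glycosylated protein held in the membrane by a glycosylphosphatidylinositol (GPI) anchor, and in the kidney it is known, together with PROM1 (CD133), from progenitor-like cells of the tubule. CD44 is the main receptor for hyaluronan. ENG (CD105) is a co-receptor for ligands of the TGF-β family, NT5E (CD73) is a GPI-anchored enzyme that makes adenosine from AMP, and THY1 (CD90) is a GPI-anchored marker of mesenchymal cells. ALCAM (CD166) and EPCAM are adhesion proteins, the latter of epithelial cells.

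Each probe reads 1 short stretch of a transcript, so the probe fixes what is measured. The first 30 of the 60 bases of the probes are shown, 5′ to 3′ as given in the array files, and for THY1 the 30 bases around its AATAAA, the hexamer known as the polyadenylation signal, which is in capitals. They are shown because the placement and copy number of the CD24 target, and the 2 probes for NT5E, bear on the values that follow.

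CD24 A_33_P3369844: ctacatgggaacaaacagatcgaacagttt

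NT5E A_24_P316430: caaatccagggacaaatttagtgtttgaag

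NT5E A_24_P354715: tctgcctccaaatctgaacagtcactgtaa

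PROM1 A_33_P3389842: tttttgcggtaaaactggctaagtactatc

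ENG A_23_P83328: gactgtcttcatgcgcttgaacatcatcag

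CD44 A_33_P3294509: gcacacccttcctctggtttttgtatattt

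THY1 A_33_P3280845: agaaaactgcacAATAAAaccaagcctctg

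ALCAM A_33_P3713357: gcgatttctttcccaggatttacacaactt

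EPCAM A_23_P91081: tcaaaatataagcagcttgaaactggcttt

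AATAAA, searched on the probe strand only, is found in 6.98% of all 60-base probes and in 1 of the 9 shown here. The array annotation, on hg19, places 7 of the 9 probes and leaves ENG and the NT5E probe A_24_P316430 unplaced. CD24 is placed on the minus strand of chrY:21152667-21152726. RefSeq (GRCh38.p14) lists the CD24 gene on chromosome 6 and 5 CD24 pseudogenes, on chromosomes 1, 3, 15, 20 and Y, so the annotated place is not on the chromosome of the gene itself. Which copies the CD24 probe captures was not tested, and its level is that of all transcripts with the probe's sequence. The other placed probes lie on the chromosome of their gene, CD44 at chr11:35253812-35253871, the second NT5E probe at chr6:86204891-86204950, ALCAM at chr3:105294613-105294672 and EPCAM at chr2:47613894-47613953, all on the plus strand. THY1 at chr11:119288887-119288946 and PROM1 at chr4:15982046-15982105 lie on the minus strand. The probes differ in how many transcripts they are annotated to. Of the RefSeq transcripts now listed, the CD24 probe names 1 of 7, the CD44 probe 4 of 39 and the PROM1 probe 2 of 19. The THY1 probe names 1 of 5, ALCAM 1 of 4, ENG 2 of 4 and each NT5E probe 1 of 2. The EPCAM probe names the only 1. Positions of the probes within exons were not analysed here.

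All 7 arrays were on 1 slide and were scanned together, EV occupying 1 row of positions and HOTAIR the next, so a row effect and HOTAIR cannot be told apart. Between 48.5% and 52.0% of non-control probes per array, each read by its first spot, were well above background. No non-control spot was saturated. HOTAIR itself was well above background on none of the EV arrays and on all 3 HOTAIR arrays, where it was at least 9.32-fold higher (limma, adjusted p = 0.00162). This bound sets the HOTAIR mean against, per EV array, the higher of the probe's own signal and the lowest signal well above background. The HOTAIR probe passed the filter only through its HOTAIR arrays, so that p adds nothing to the levels. EV 2 stood apart from the other arrays along the first principal component (51.8% of the variance, score 74.0), HOTAIR 3 was next (21.1), and the others lay between -29.4 and -8.5. Of the renal epithelial markers, 12 of 16 were well above background on all arrays, among them PAX8, PAX2, KRT8, KRT18 and VIM, while CDH1, CA9, ANPEP and CDH6 were on none. The linear sum of that list, in which the brightest probes, KRT18 and VIM, weigh most, was 340 to 410 in EV and 334 to 366 in HOTAIR. Its unit is the array's 75th percentile. None of the 5 endothelial or 6 fibroblast markers was high enough for testing, their sums lying between 0.053 and 0.0693 and between 0.0381 and 0.0639, where CDH5 was well above background on 4 arrays, PDGFRA on 2, PECAM1 on 1 and the other 8 on none. Of 6 leukocyte markers, CD14 and CD79A were well above background on all arrays, PTPRC on 3 and CD3E on none, with a sum of 0.792 to 1.36 in EV and 1.14 to 1.28 in HOTAIR.

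Levels below are log2 processed intensities relative to the 75th percentile of the same array, so 0 is the intensity that 75% of the spots do not exceed. They are compared between arrays for 1 probe and not between probes. The plot of levels by array shows all 9 probes.

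**Figure D1:**
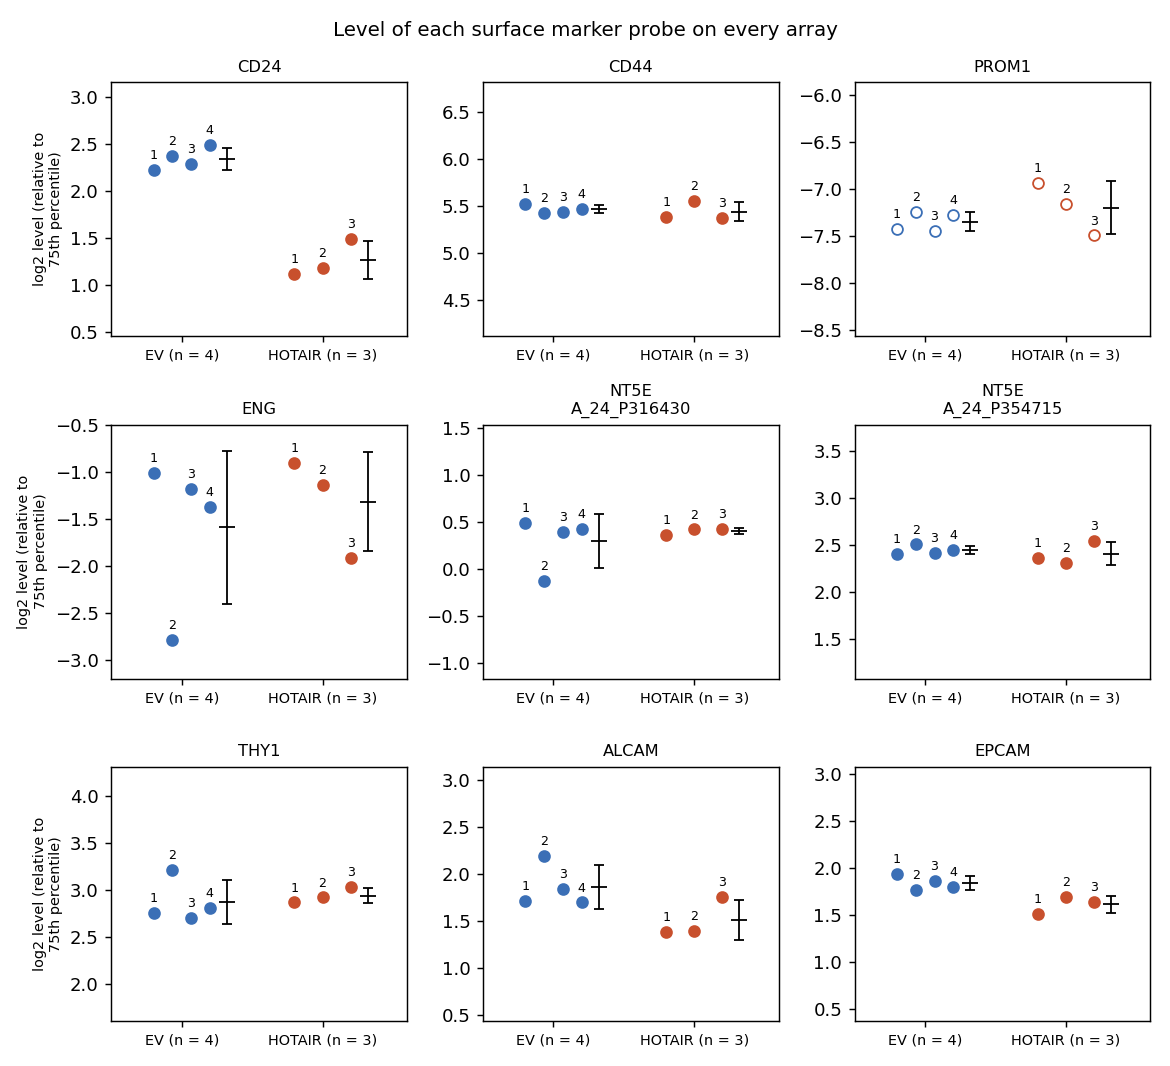
Level of each of the 9 probes on every array (vertical axis, log2 relative to the array's 75th percentile, the same span in every panel), by group, with the array number above each point. Filled points were well above background, open points were not, and the black bars are the mean ± SD. The CD24 arrays of the groups are separated by 0.73, whereas the PROM1 points are all open and ENG is lowest on EV 2 and HOTAIR 3.

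CD24 was present at 2.22, 2.37, 2.29 and 2.49 on EV 1 to EV 4. On HOTAIR 1 to HOTAIR 3 it was at 1.12, 1.18 and 1.49. Every HOTAIR array was below every EV array, and the lowest EV array lay 0.73 above the highest HOTAIR array, which is wider than the range within EV (0.27) or within HOTAIR (0.37). The means were 2.34 ± 0.12 (SD, n = 4) and 1.26 ± 0.20 (SD, n = 3), a difference of -1.08 on the log2 scale with a standard error of 0.13 and a 95% interval from -1.39 to -0.77, or 2.11-fold lower in HOTAIR. Whether fewer cells carried CD24 RNA or each cell carried less cannot be told apart in such bulk samples. In unscaled intensities, the EV arrays were between 2740 and 3035 and the HOTAIR arrays between 1254 and 1577. The probe is spotted on each array in 2 copies, which differed by at most 0.18.

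The adjusted p by which CD24 was chosen was 0.0424 (limma, Benjamini-Hochberg over 20419 tested probes). The threshold of 0.05 fell between a called probe at 0.0482 and the next probe at 0.0546, so CD24 lay close to it. At that threshold 34 probes (0.167% of those tested) were called, of which 7 (0.0343%) were lower in HOTAIR, and CD24 had the third lowest difference of the 7. Over all tested probes CD24 was 24th by p and 13th from the bottom by difference, and its residual SD of 0.16 was below the median of 0.22. In a rank product over the 12 comparisons of a HOTAIR with an EV array, the method that the study names, CD24 stood at position 6 among the lower probes, and at 126 when dim probes were kept. The call was lost whenever any 1 of the 7 arrays was left out (adjusted p from 0.0555 without HOTAIR 3 to 0.244 without HOTAIR 1), while the difference stayed between -1.19 and -1.01. It was also lost with no filter on dim probes (adjusted p = 0.131) and with the array number as a block (adjusted p = 0.451, difference -1.03).

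**Figure D2:**
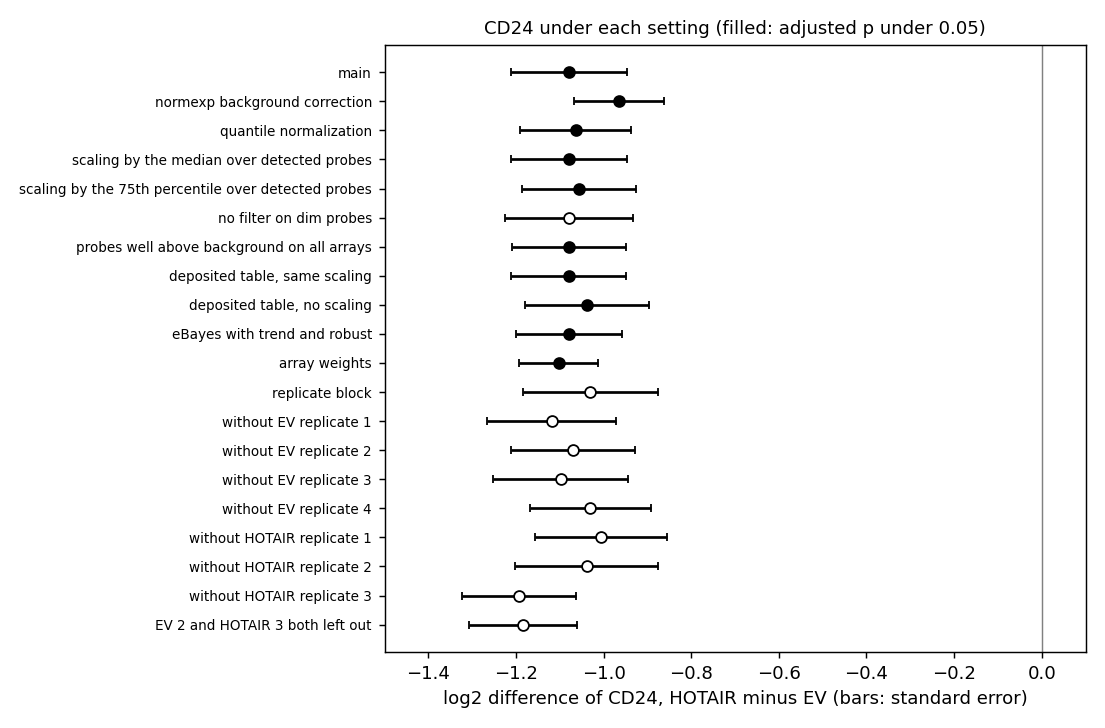
Difference of CD24 between HOTAIR and EV (horizontal axis, log2, bars are standard errors) under each processing setting or with arrays left out (vertical axis). The difference stays between -1.19 and -0.97 throughout, and open points, where the adjusted p is not under 0.05, include every fit with an array left out.

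The remaining members did not pass the test. The lowest adjusted p among the other 7 tested probes was 0.881, for EPCAM, and their differences ran from -0.35 for ALCAM to 0.27 for ENG. The median over all 8 tested probes was -0.03, and that over all 20419 was 0.01. The groups did not overlap for 2 of the 8, CD24 and EPCAM, both lower in HOTAIR. Over all tested probes the groups did not overlap for 7.7%, and did so with HOTAIR lower for 3.5%, and CD24 had been chosen for this difference, so that 1 of 7 is left to read against those shares. The intervals differed in width, from ±0.23 for CD44 to ±1.05 for ENG.

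**Figure D3:**
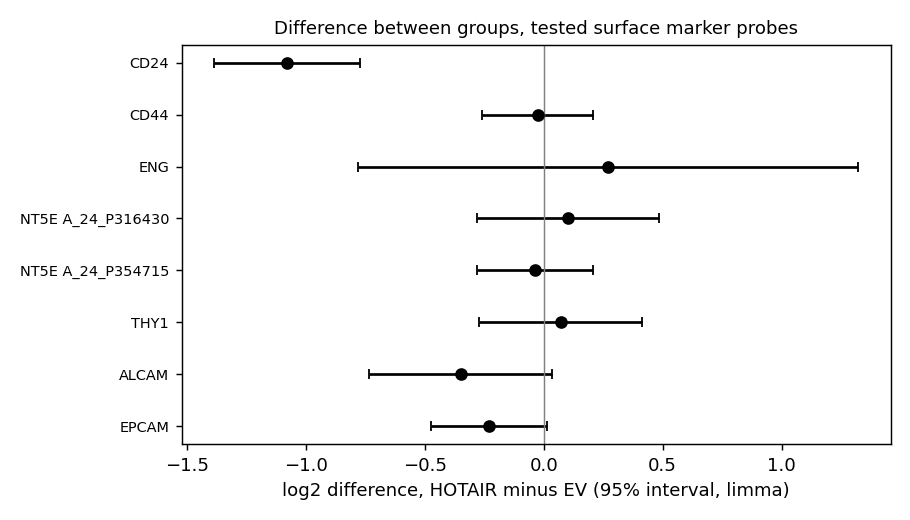
HOTAIR minus EV difference of the 8 tested probes (horizontal axis, log2) with 95% intervals from limma. The interval of CD24, the probe chosen for this difference, lies below 0, those of ALCAM and EPCAM end at 0.04 and 0.01, and that of ENG is the widest.

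EPCAM, which joins epithelial cells to each other, was at 1.94, 1.77, 1.86 and 1.80 on EV 1 to EV 4. It was at 1.51, 1.69 and 1.64 on HOTAIR 1 to HOTAIR 3. The highest HOTAIR array lay just under the lowest EV array. The difference was -0.23 with a standard error of 0.10 (95% interval -0.47 to 0.01, limma, adjusted p = 0.881). Leaving out single arrays moved it between -0.27 and -0.18. Of the 12 tested genes of the renal epithelial list, 1 had groups that did not overlap, KRT19, near the 7.7% over all tested probes. KRT19 had a difference of -0.41 and an adjusted p of 0.602 by limma. The other keratins overlapped, with KRT7 at -0.29, KRT8 at -0.18 and KRT18 at 0.02, and the highest difference of the list was 0.45, for MME.

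ALCAM, a partner of CD6 and of itself in cell adhesion, was at 1.71, 2.19, 1.84 and 1.70 on the EV arrays in order. On the HOTAIR arrays it was at 1.38, 1.40 and 1.75. HOTAIR 1 and 2 were below all EV arrays, HOTAIR 3 was within the EV range, and EV 2 was above all others. The difference was -0.35 with a standard error of 0.17 and a 95% interval of -0.73 to 0.04 (limma, adjusted p = 0.906). CD24 itself had its highest HOTAIR value on HOTAIR 3.

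CD44 was nearly level, at 5.53, 5.43, 5.44 and 5.47 on EV 1 to EV 4. Its HOTAIR values were 5.39, 5.56 and 5.38. The groups overlapped, with HOTAIR 2 the highest of all arrays. The difference was -0.03, with a 95% interval of -0.26 to 0.21 (limma, adjusted p = 0.993), so a change as large as that of CD24 lies outside the interval for the transcripts this probe reads. Its sign changed with the setting, to 0.04 with array weights and 0.02 for the deposited table without scaling.

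THY1 was at 2.75, 3.21, 2.70 and 2.80 on the EV arrays. It was at 2.86, 2.92 and 3.03 on the HOTAIR arrays. EV 2 was the highest and the other 3 EV arrays were below all HOTAIR arrays. The difference was 0.07 (95% interval -0.27 to 0.41, limma, adjusted p = 0.993), and the copies of the THY1 spot on EV 4 differed by 0.55, the widest gap between copies among the members. Single arrays moved the difference between 0.02 (without EV 3) and 0.19 (without EV 2), and array weights gave 0.17.

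ENG, which presents BMP and TGF-β ligands to their receptors, had the widest spread of the members. The EV arrays read -1.02, -2.79, -1.18 and -1.38. The HOTAIR arrays read -0.91, -1.14 and -1.91. The lowest level was on EV 2, the array that stood apart over all probes. The next lowest was on HOTAIR 3, nearest to EV 2 along the first principal component. The difference was 0.27 with a standard error of 0.45 (95% interval -0.78 to 1.32, limma, adjusted p = 0.993). It turned to -0.13 without EV 2, so no direction can be given for ENG.

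The NT5E probes gave like results between groups but not on EV 2. Probe A_24_P354715 read 2.41, 2.51, 2.41 and 2.45 on the EV arrays and 2.36, 2.31 and 2.55 on the HOTAIR arrays. Probe A_24_P316430, which has 1 spot per array, read 0.49, -0.12, 0.40 and 0.43 on the EV arrays and 0.36, 0.42 and 0.42 on the HOTAIR arrays. On EV 2 the former was the highest of its group and the latter the lowest. The differences were -0.04 (95% interval -0.28 to 0.21) and 0.10 (95% interval -0.28 to 0.49), both with an adjusted p of 0.993 by limma. The gap between the probes was 1.91 to 2.02 on the other 3 EV arrays, 2.63 on EV 2 and 1.89 to 2.12 on the HOTAIR arrays.

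PROM1, the pentaspan protein known as CD133, was not well above background on a single array. Its values were -7.42, -7.24, -7.44 and -7.28 on the EV arrays and -6.94, -7.16 and -7.49 on the HOTAIR arrays. The groups overlapped at these low levels, and no test or fold was made. The probe is annotated to only 2 of the listed PROM1 transcripts, and whether it reads the others was not tested.

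How far the members moved within groups depended on the array. The median size of the members' deviation from their group mean was 0.20 on EV 2, and 0.04 to 0.12 on the other 6 arrays. The largest were those of ENG, at -1.20 on EV 2 and -0.59 on HOTAIR 3. THY1 and ALCAM deviated upward on EV 2 (0.34 and 0.33), and ALCAM and CD24 on HOTAIR 3 (0.24 and 0.23). Over all tested probes the SD of the deviations was 0.48 on EV 2 and 0.18 to 0.30 elsewhere, and across probes, which are not independent, the deviations of EV 2 and HOTAIR 3 had a correlation of 0.62. With both arrays left out, the CD24 difference was -1.18, and its adjusted p was 0.0609 (limma).

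**Figure D4:**
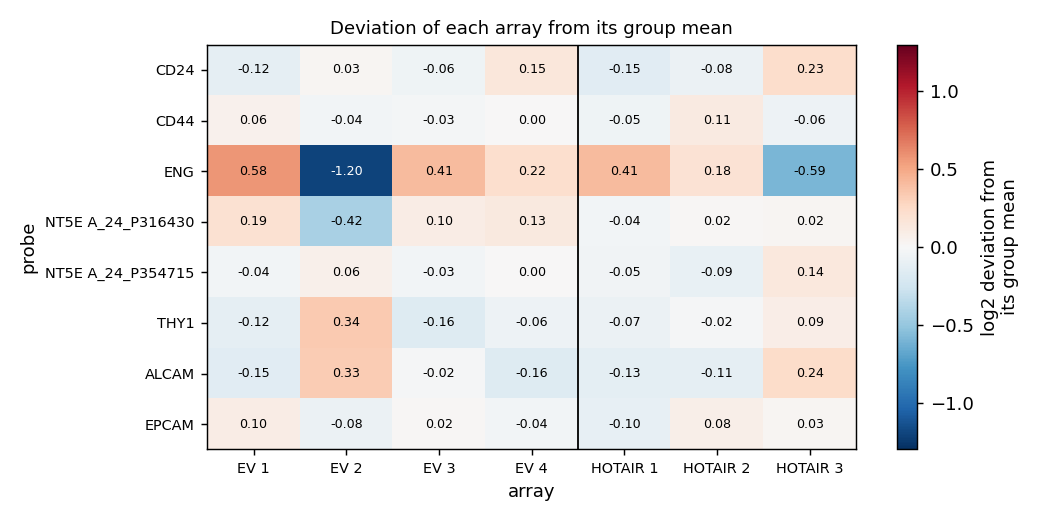
Deviation of each array (columns) from the mean of its group for the 8 tested probes (rows), in log2 units, with the group border as a black line. The darkest cells are ENG on EV 2 (-1.20) and HOTAIR 3 (-0.59), and CD24 and CD44 stay within 0.23 of their means.

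Distance to the CD24 profile was taken as a description and does not show which genes vary with CD24. When each probe's mean over the 7 arrays was removed and profiles were compared by their root mean square distance, which uses the contrast that chose CD24, the nearest of the members was ALCAM at 0.40 (position 278 of the tested probes), followed by EPCAM at 0.45 (position 1028), and the farthest was ENG at 0.96 (position 19314). The 5 nearest probes of all were those of ST8SIA1, a sialyltransferase that makes the ganglioside GD3 (distance 0.10), ACSL5, an acyl-CoA synthetase (0.15), PAPPA, a protease that cleaves IGF-binding proteins (0.17), CYS1, a protein of the cilium (0.17), and CCND2, a D-type cyclin (0.18). Their differences ran from -1.25 for CCND2 to -0.88 for PAPPA. All 5 were among the 7 probes called lower in HOTAIR (limma, adjusted p from 0.0326 to 0.0482). Their nearness therefore restates the call that chose CD24. ST8SIA1 was dim, at -5.09 to -4.65 on the EV arrays and -6.01 to -5.85 on the HOTAIR arrays. Whether its HOTAIR arrays were well above background is not given here.

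The genes that work with these proteins were read from lists of their partners and ligands, of the enzymes that build the GPI anchor and of other stem or progenitor markers. Of 131 listed genes 128 were on the array and 94 were tested. Limma called 0 of the 94 at an adjusted p of 0.05, against 0.167% of all tested probes. That share is too small to read the 0 as a result about these genes. An unadjusted p under 0.05 was found for 5 (5.32%), against 5.85% of all tested probes. The groups did not overlap for 6 of the 94, with HOTAIR lower for 4 (HYAL1, ADAM10, PIGT and ALDH1A1) and higher for 2 (NES and KIT). That is 6.38% of them, against 7.7% of all tested probes, so the related genes described below do not exceed the share over all probes. The median difference was -0.01.

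Of the partners of CD24, the cell adhesion protein L1CAM and the kinase LYN were tested, with differences of 0.01 and 0.05. L1CAM was at -0.50, -2.90, -0.89 and -1.21 on the EV arrays and at -0.84, -1.14 and -2.12 on the HOTAIR arrays, with the lowest values on EV 2 and HOTAIR 3, as for ENG. The lectins that bind CD24 on other cells, SIGLEC10, SELP and SELE, were well above background on none of the arrays.

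Among 12 tested partners of CD44, the hyaluronan-degrading enzyme HYAL1 had the lowest difference. It was at -2.37, -1.67, -2.29 and -1.84 on the EV arrays and at -2.89, -3.00 and -2.55 on the HOTAIR arrays. All HOTAIR arrays were lower, with a difference of -0.77 and an adjusted p of 0.457 (limma). The highest difference of that list was 0.31, for the hyaluronan synthase HAS3, and ADAM10, a sheddase of CD44, was at -0.17. ADAM10 lay at 0.13 to 0.26 on the EV arrays and at -0.10 to 0.09 on the HOTAIR arrays.

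The 9 tested genes around ENG, its receptors, ligands and SMADs, stayed between -0.18 (ACVR2A, an activin receptor) and 0.05 (SMAD5). Around NT5E, 9 genes of adenosine handling included the adenosine receptor ADORA2B, the lowest at -0.20, and the adenosine receptor ADORA1 at 0.37. The nucleoside transporter SLC29A2 was not well above background on EV 2, where it read -6.18, and it lay between -2.97 and -2.33 on the other EV arrays and between -3.74 and -2.29 on the HOTAIR arrays, so the groups overlapped. Among the 7 tested partners of EPCAM, the transcription factor LEF1 had the highest difference, 0.45. None of the 7 was called, against 0.167% of all tested probes. The 5 tested partners of THY1 ranged from -0.25 for the integrin ITGB2 to 0.11 for ADGRE5. For PROM1, HDAC6 was at -0.11 and PIK3R1 at 0.13, and for ALCAM, the adaptor SDCBP was at -0.03.

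CD24, NT5E and THY1 are held by the GPI anchor. Its 30 tested genes had a median difference of -0.08 and none was called, against 0.167% of all tested probes. PGAP1, which trims the anchor's lipid, was the lowest at -0.41 (adjusted p = 0.988, limma) and PIGQ, of the first step of synthesis, the highest at 0.26. PIGT, a subunit of the transamidase that attaches the anchor, was at 4.46, 4.32, 4.37 and 4.29 on the EV arrays. It was at 4.04, 4.11 and 4.08 on the HOTAIR arrays. Its HOTAIR arrays were all below its EV arrays, with a difference of -0.29 and an adjusted p of 0.689 (limma).

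Of the other stem or progenitor markers, 17 of 28 were tested. ALDH1A1, a retinal dehydrogenase used as a stem cell marker, was at -0.57, 0.07, -0.79 and -0.65 on the EV arrays. Its HOTAIR values were -1.69, -1.64 and -1.27. The groups did not overlap, and the difference of -1.05 had an adjusted p of 0.223 (limma). The intermediate filament gene NES was at -2.53 to -2.23 in EV and at -2.15 to -2.00 in HOTAIR, a difference of 0.28 (limma, adjusted p = 0.785). KIT, the receptor of stem cell factor, was not well above background in EV (mean -6.71) and was on all 3 HOTAIR arrays (mean -4.55), at least 3.15-fold higher there (limma, adjusted p = 0.0678). KIT entered the test only through its HOTAIR arrays, so that p adds nothing to the levels. The array has 3 probes for KIT and 2 each for ALDH1A1 and NES, and only the brightest tested probe of each is described.

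**Figure D5:**
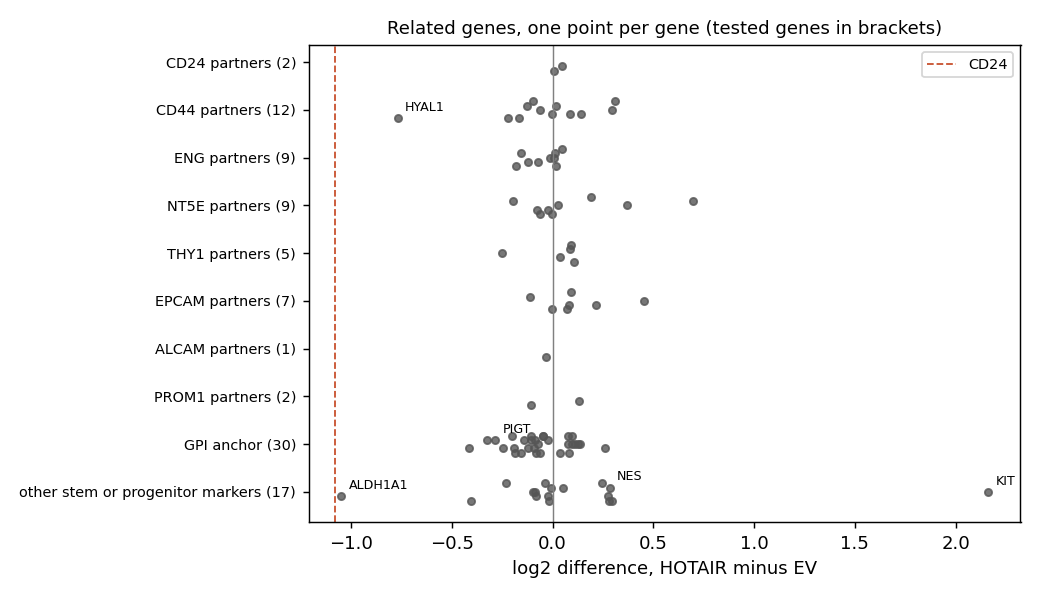
HOTAIR minus EV difference (horizontal axis, log2) of the 94 tested related genes, 1 point per gene, by list (vertical axis, number tested in brackets, points spread vertically only to keep them apart), with CD24 as a dashed line at -1.08. None was called, against 0.167% of all tested probes. The point for KIT rests on EV values that were not well above background, and SLC29A2 (0.69) was below that limit on EV 2.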

How the data were processed

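Gene expression was measured in 7 ACHN samples, 4 EV and 3 HOTAIR, grouped by the sample labels. The images were extracted by the authors with Agilent Feature Extraction 10.7.3.1, per the labels, and the deposited files hold for every spot a processed intensity, which is background subtracted and detrended, with flags for outliers, saturation and signal well above background. The deposited value table holds the same processed intensities on a linear scale without scaling between arrays. Over 440783 cells its largest difference from the processed intensity of the same spot was 0.498%. The probe annotation is on hg19.

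With R 4.3.3 and limma 3.58.1, processed intensities were put on a log2 scale and the 75th percentile of the array's 58717 non-control spots was subtracted. Outlier spots were left out and spots of a probe were averaged. A probe counted as well above background on an array if at least 0.5 of its spots did, and it was tested if this held on every array of at least 1 group, which left 20419 probes. lmFit and eBayes gave the HOTAIR minus EV difference, called at a Benjamini-Hochberg adjusted p of 0.05 over the whole table. The groups have 4 and 3 arrays, and this number limits the precision.

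The members and lists were chosen with earlier results of these data known, and so were the tests. Named genes were all members, the genes of the related lists past the adjusted p, up to 4 more per list with the largest and smallest differences, the 5 probes nearest to CD24 in profile, HOTAIR, and marker genes. ADAM10, PIGT, NES and L1CAM were named for non-overlapping groups or their array pattern, after their values were seen. For a listed gene with several tested probes, the brightest was used. Some listed genes are not reported here by name. All 8 members matched RefSeq. The computations were tested on simulated data.

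The alternatives were other background correction, scaling, filters, value source, moderation, array weights, the array number as a block, leaving out each array, and the rank product. Leaving out EV 2 and HOTAIR 3 together was chosen after seeing the data.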

Additional observations from a re-analysis of the deposited data

Results flagged for a closer look

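The NT5E probe A_24_P316430 on EV 2 stood far from the other EV arrays. Its level of -0.12 lay below the 0.40 to 0.49 of the other 3, and the gap to the nearest of them was 0.844 of the whole range of the group, above Dixon's 95% critical value for 4 samples. The 9 EV groups of the member probes were examined in this way and 1 passed, where chance alone gives about 1 in 20, or 0.45 of 9. The 9 groups are not independent, since they share the same 4 arrays and EV 2 stood apart over all probes. THY1 and ENG, also farthest on EV 2, reached 0.802 and 0.797. The second NT5E probe was at 2.51 on that array, within 0.10 of the other EV arrays.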

How the results depend on the processing

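CD24 was lower in HOTAIR under every alternative run, at -1.19 to -0.97. It stayed called, as the only one of the member probes, under 9 alternatives of background correction, scaling, filter, value source, moderation and array weights (adjusted p from 0.00168 to 0.0497). With no filter on dim probes 0 member probes were called (CD24 -1.08, adjusted p = 0.131), and with EV 2 and HOTAIR 3 both left out, chosen after seeing the data, also 0 (CD24 -1.18, adjusted p = 0.0609). Leaving out 1 array gave 0 member probes in all 7 fits (0 to 0), with CD24 from -1.19 to -1.01. With the array number as a replicate block, 0 members and 0 probes in all were called, with CD24 at -1.03. Same-numbered arrays had deviations correlated at 0.386, -0.368 and -0.406, and HOTAIR 1, 2 and 3 resembled EV 1, 1 and 2 most. The deviations are from group means, which EV 2 shifts, so they cannot decide whether same-numbered arrays are paired. The sources do not state such a pairing.

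The calls over all probes, 34 in the fit reported, were 12 with normexp, 14 with no filter, 22 with probes well above background on all arrays, 20 with robust moderation, 324 with array weights, and 9 to 30 with 1 array left out. Of the related genes, 1 was called without scaling (KIT), where 25 of all 20419 tested probes were called. With array weights it was 3 (KIT, ALDH1A1 and HYAL1), where 324 of 20419 were called. With EV 2 and HOTAIR 3 both left out it was 1 (KIT), where 28 of 20750 were called. With 1 array left out it was 0 to 1 (KIT, without EV 2, where 30 of 20589 were called). KIT was tested only through its HOTAIR arrays.

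Signs turned only for differences near 0 and for ENG. The NT5E probe A_24_P316430 went to -0.057 with normexp, -0.0481 with EV 2 and HOTAIR 3 both left out and, with 1 array left out, -0.0375 to 0.168 (lowest without EV 2), and probe A_24_P354715 to 0.0037 without scaling and -0.108 to 0.0082 with 1 array left out (highest without HOTAIR 2). CD44 went to 0.0178 without scaling, 0.0351 with array weights and -0.083 to 0.0053 with 1 array left out (above 0 without HOTAIR 1 or 3), and ENG to -0.129 to 0.568 (lowest without EV 2). Causes were not tested. Position on the slide cannot be told apart from group, and PROM1 was too dim to compare.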
